A study of Mus musculus with 2 samples.

Results

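The IGF binding proteins are represented here by 6 genes, Igfbp2, Igfbp3, Igfbp4, Igfbp5, Igfbp6 and Igfbp7, which are 6 of the 19320 features measured. They were chosen by family, with earlier results of these data known, and all 6 were detected. Igfbp1, a further gene of the family, was also measured and was counted in a list of other IGF genes. The cells came from dissociated prostate of mice in which Osr1-Cre recombined 2 alleles at the R26 locus, the hAR allele and the mTmG reporter (R26 mTmG/hAR:Osr1 Cre/+), on a mixed background of C57BL/6 and 129S1/SvImJ. Recombination switches on a human androgen receptor transgene, hARtg, and membrane GFP in Osr1-expressing cells and their descendants, and both samples carried it. One sample was prostatic intraepithelial neoplasia (PIN) and the other prostatic adenocarcinoma (PCa). PIN tissue came from mice aged 6 months and PCa tissue from mice aged 12 months. Each was profiled as 1 droplet-based 3′ library, and no wild-type library was part of the comparison. From their names alone, the feature ARQ was read as the hARtg transgene and EGFP as the membrane GFP reporter.

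Insulin-like growth factors act through IGF1R on the cell surface, and most of the ligand outside cells is bound to IGF binding proteins. These secreted proteins hold the ligand away from the receptor, carry it or release it near cells once proteases cut them. IGFBP7 binds IGF only weakly and is best known from the walls of blood vessels. In the prostate, ligand and many binding proteins are made by the stroma, while the epithelium responds through IGF1R.

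Columns of the table end in 1 of 2 suffixes, which define barcode sets 1 and 2. Neither the labels nor the column names tie a suffix to PIN or PCa. The cell number that the study's methods give for PIN equals that of set 1, and the one for PCa is close to that of set 2. A match of cell numbers was not used to assign a tissue, and the sets are therefore compared with each other and not as tissues. They held 6332 and 9410 cells with a median of 17235 and 14824 unique molecular identifiers (UMIs, tags of single captured RNA molecules), and 67 barcodes occurred in both. Cells were classed by scores over marker genes, which left 15409 cells after doublet removal. The numbers in sets 1 and 2 were 3136 and 7976 luminal-like, 1377 and 216 basal-like, 329 and 212 in between, 157 and 279 fibroblast-like, 40 and 148 endothelial-like, 11 and 44 mural-like, and 1049 and 230 immune-like. Basal and luminal are ranges of 1 score, with 359 cells within 0.25 of the basal limit and 339 within the same distance of the luminal limit. Basal-like cells had a median fibroblast score of 0.517, against 1.60 in fibroblast-like cells. Levels are UMIs per 1000000 UMIs of a class (CPM). Since 3′ tagging counts 1 tag per captured molecule, CPM needs no scaling by transcript length to set genes side by side. Values in brackets after a level, a share or a log2 ratio are 95% intervals for counting error only. With 1 library per group and cells that are not replicates, no difference has a replicate check and no p-value was computed.

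Igfbp2 and Igfbp5 are neighbours on chromosome 1 of mouse assembly GRCm38.p6, at 72824480 to 72852474 and 72858065 to 72874865. Igfbp3 (7206086 to 7215498) and Igfbp4 (99040005 to 99052655) lie far apart on chromosome 11, Igfbp7 on chromosome 5 (77349240 to 77408045) and Igfbp6 on chromosome 15 (102144186 to 102149512). The 150 bases before a RefSeq transcript start are printed for the neighbouring pair, for Igfbp3 and Igfbp4, which were lower together with Igfbp5 in EGFP-high basal-like cells, and for Igfbp7, which was not. Capitals mark a match to the TATA box (TATAAA), the GC box (GGGCGG) or the E-box (CACGTG) on either strand.
Igfbp2, chr1:72824330-72824479, plus strand: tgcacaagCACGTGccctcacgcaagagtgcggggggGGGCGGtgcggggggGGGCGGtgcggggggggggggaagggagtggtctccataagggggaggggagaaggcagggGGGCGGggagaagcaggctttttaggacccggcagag
Igfbp5, chr1:72874866-72875015, minus strand: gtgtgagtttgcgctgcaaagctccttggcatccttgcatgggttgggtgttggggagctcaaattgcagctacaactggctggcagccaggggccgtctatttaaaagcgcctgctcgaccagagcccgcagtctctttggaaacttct
Igfbp3, chr11:7213924-7214073, minus strand: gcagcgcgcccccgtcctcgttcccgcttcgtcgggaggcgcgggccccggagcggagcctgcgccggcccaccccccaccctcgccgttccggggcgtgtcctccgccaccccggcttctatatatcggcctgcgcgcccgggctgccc
Igfbp4, chr11:99041094-99041243, plus strand: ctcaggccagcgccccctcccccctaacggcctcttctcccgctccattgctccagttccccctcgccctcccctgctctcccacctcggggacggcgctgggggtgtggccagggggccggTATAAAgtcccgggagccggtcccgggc
Igfbp7, chr5:77408046-77408195, minus strand: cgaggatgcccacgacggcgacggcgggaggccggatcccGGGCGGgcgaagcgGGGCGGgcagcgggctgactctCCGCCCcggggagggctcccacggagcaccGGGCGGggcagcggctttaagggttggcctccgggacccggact
Igfbp7 held 4 GC boxes and Igfbp2 held 3 with 1 E-box, Igfbp4 held 1 TATA box, and the stretches of Igfbp3 and Igfbp5 held none of these letters. Over windows from 250 bases before to 50 after the start, the GC box occurred in 35.7%, the TATA box in 13.6% and the E-box in 7.15% of 32851 RefSeq promoters. In that wider window Igfbp6 held 1 TATA box on the opposite strand. The androgen receptor half-site TGTTCT occurred once, in 1 of the 2 Igfbp2 promoters, beside 19.0% of all promoters. The full palindrome, this half-site with its reverse complement 3 bases before it, occurred in none of the members' windows, and in 0.00913% of all promoters.

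The first question was which cells carried the transcripts. All 6 members were far higher in fibroblast-like than in epithelial cells, and Igfbp7, Igfbp3 and Igfbp4 also in endothelial-like cells. In barcode set 1, the 6 genes together made up 13324 CPM of fibroblast-like and 14202 CPM of endothelial-like cells, against 198 CPM of basal-like and 68.1 CPM of luminal-like cells. Set 2 gave 12699, 16359.8, 249.7 and 43.7 CPM for the same classes. Against epithelial cells, 6 of 6 members were at least 2-fold higher in fibroblast-like cells in each set, beside 25.8% of all genes with 20 or more UMIs in set 1 and 29.4% in set 2. Over the members the log2 ratios had a median of 7.46 in set 1 and 7.67 in set 2, against -0.083 and 0.10 over all genes. In endothelial-like cells 4 of 5 members were 2-fold higher than in epithelial cells in set 1, beside 27.9% of all genes, with Igfbp6 among them on 1 UMI, and 4 of 6 in set 2, beside 30.1%.

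**Figure D1:**
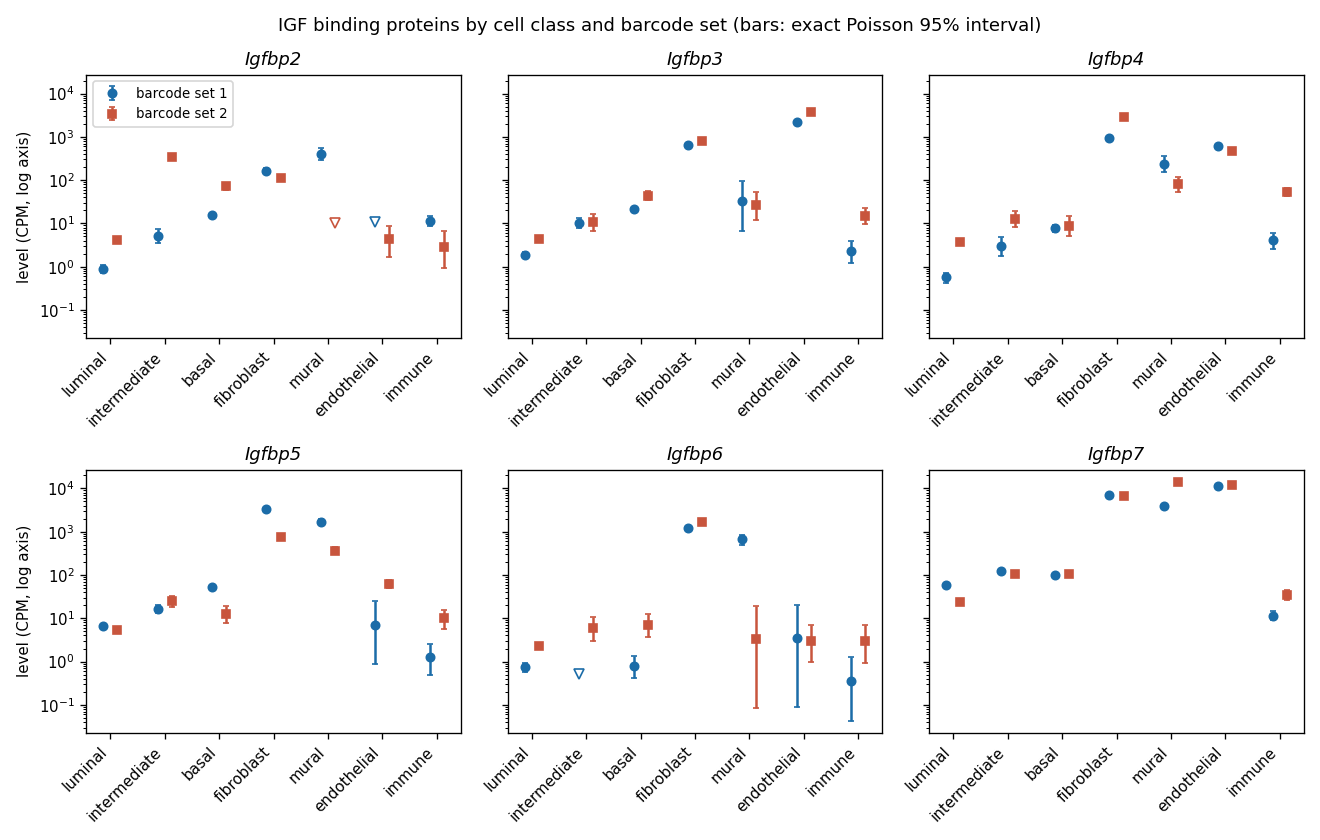
Level of each IGF binding protein (CPM, log axis) in 7 cell classes, for barcode set 1 (circles) and barcode set 2 (squares); bars are exact Poisson 95% intervals and open triangles mark a sum of 0 UMIs, drawn at the level of 3 UMIs. Fibroblast-like and endothelial-like cells stand above all epithelial classes for Igfbp3, Igfbp4 and Igfbp7, while Igfbp6 is high in fibroblast-like cells and rests on 1 and 5 UMIs in endothelial-like cells of sets 1 and 2.

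Igfbp7 was the most abundant member in all stromal and endothelial-like classes. Its level in endothelial-like cells was 11368 CPM (10978 to 11768) in set 1 and 12095 CPM (11928 to 12265) in set 2. Fibroblast-like cells held 6928 CPM (6787 to 7071) and 6541 CPM (6408 to 6676), so the endothelial-like level was the higher one in each set, at log2 ratios of 0.71 (0.66 to 0.77) and 0.89 (0.85 to 0.92). Nearly every such cell held the transcript. After each cell was thinned to 3000 UMIs, 97.1% (85.1 to 99.9) and 98.5% (94.6 to 99.8) of endothelial-like and 99.3% (96.2 to 100) and 98.7% (96.2 to 99.7) of fibroblast-like cells had an Igfbp7 UMI. Mural-like cells, the smooth muscle cells and pericytes around vessels and glands, differed between the sets with 3912 CPM over 11 cells and 13918 CPM over 44 cells, and with so few cells they entered only the sums by class and the search for similar patterns. Basal-like cells held 101 and 105 CPM, luminal-like cells 57.4 and 23.6 CPM, and immune-like cells 11.5 and 34.4 CPM. In set 2 the cells between basal and luminal, at 103 CPM (89.2 to 119), did not differ from basal-like cells, at 105 CPM (90.0 to 122), beyond counting error.

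Igfbp3, the main carrier of IGF in blood, had its highest levels in the vessel lining. Endothelial-like cells held 2222 CPM (2052 to 2403) in set 1 and 3732 CPM (3639 to 3827) in set 2, and fibroblast-like cells 642 CPM (599.6 to 687) and 785 CPM (739.7 to 833). The endothelial-like level was 3.46 and 4.75 times the fibroblast-like level. Igfbp3 was the only member at least 2-fold higher in endothelial-like than in fibroblast-like cells, in both sets, beside 19.0% and 22.2% of all genes. Igfbp2, Igfbp5 and Igfbp6 were 2-fold lower there in set 1, 3 of 6 members beside 23.7% of all genes, and with Igfbp4 4 of 6 in set 2, beside 17.6%. Basal-like cells held 21.8 and 44.1 CPM and luminal-like cells 1.89 and 4.45 CPM.

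Igfbp6, which prefers IGF2 as its ligand, and Igfbp5, which binds to extracellular matrix, were fibroblast-like genes with little signal in endothelial-like cells. Igfbp6 stood at 1240.2 CPM (1181 to 1302) and 1657 CPM (1590.3 to 1726) in fibroblast-like cells, against 1 UMI and 5 UMIs in all endothelial-like cells of sets 1 and 2. After thinning, 79.3% (71.8 to 85.6) and 79.6% (73.8 to 84.6) of fibroblast-like cells had an Igfbp6 UMI, and 0.192% (0.0707 to 0.419) and 0.533% (0.384 to 0.719) of luminal-like cells. Immune-like cells, which should lack the gene, gave 0.25% (0.0303 to 0.901) and 0% (0 to 1.79), with median depths of 3812 and 7118 UMIs before thinning against 28351 and 16689 in luminal-like cells. A count of 0 in set 2 allows a share of up to 1.47%, so these cells cannot tell the luminal-like share of set 2 from background, and the luminal-like share of set 1 was not above the immune-like one. Igfbp5 stood at 3414 CPM (3315 to 3515) in set 1 and 763 CPM (718 to 809.7) in set 2. The endothelial-like sums were 2 and 103 UMIs, and in set 2 77.7% of them came from 3 cells with 10 or more UMIs.

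Igfbp4, whose protein is cut by the protease PAPP-A, was shared by fibroblast-like cells (936 CPM (885 to 989.8) and 2841 CPM (2754 to 2931) in sets 1 and 2) and endothelial-like cells (601 CPM (514 to 699) and 462 CPM (430 to 496)). It was also the member with the highest immune-like level in set 2. Immune-like cells held 4.08 CPM (2.59 to 6.13) in set 1 and 53.1 CPM (42.8 to 65.2) in set 2, and within set 2 the myeloid-like cells held 54.2 CPM (43.3 to 67.0) with a UMI in 25.8% of 190 cells. Myeloid-like cells of set 1 held 11.3 CPM (5.82 to 19.7) over 135 cells. In set 2 the Igfbp4 level of immune-like cells was 1.87% of the fibroblast-like level, whereas the 6 fibroblast markers lay between 0.181% and 0.791% of theirs. This was not particular to Igfbp4. On fewer UMIs, Igfbp2 stood at 2.61%, Igfbp3 at 1.93% and Igfbp5 at 1.30%, while Igfbp7 stood at 0.527% and Igfbp6 at 0.176%.

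Igfbp2, a carrier with an RGD motif, was the least abundant member in fibroblast-like cells, with 164 CPM (143 to 187) in set 1 and 112 CPM (95.2 to 131) in set 2, and no UMI in the 40 endothelial-like cells of set 1. Its UMIs were concentrated in few cells. In the epithelial cells between basal and luminal of set 2, a level of 339.9 CPM rested on 7 of 212 cells with 10 or more UMIs, which held 94.8% of the 635 UMIs. In basal-like cells of set 2, 1 cell held 90 of 121 UMIs. The same cells set the Igfbp2 ratios of set 2 epithelium that follow.

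**Figure D2:**
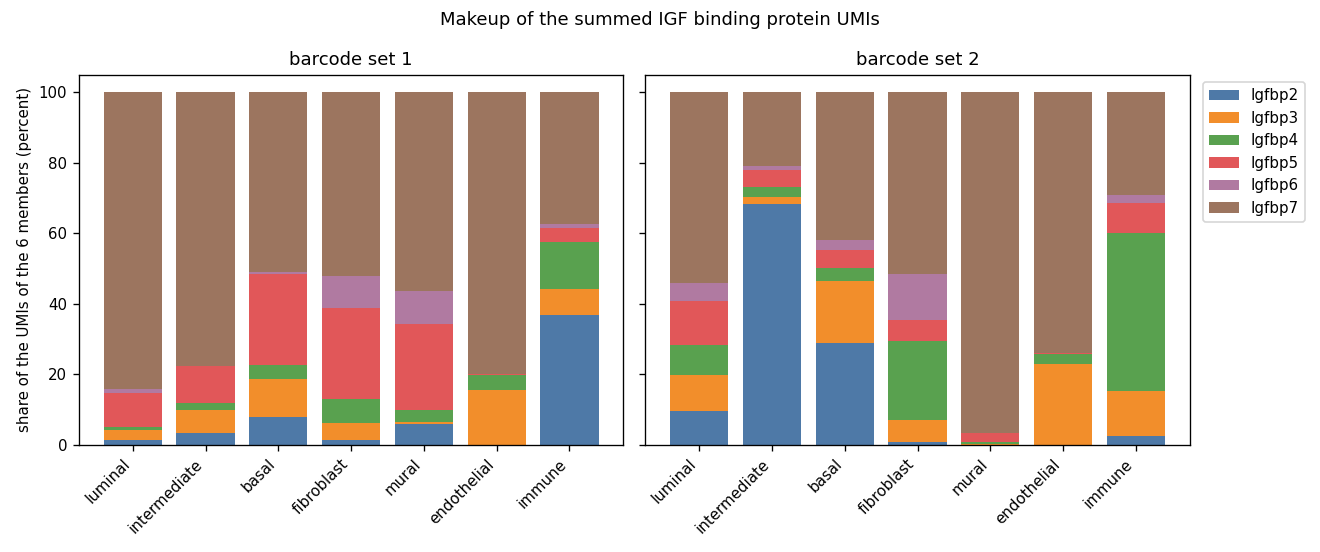
Share of the summed UMIs of the 6 IGF binding proteins taken by each member (percent, stacked bars that sum to 100), by cell class, for barcode set 1 (left) and barcode set 2 (right). Igfbp7 takes the largest share in fibroblast-like, mural-like and endothelial-like cells, and Igfbp3 takes a larger share in endothelial-like than in fibroblast-like cells.

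Single fibroblast-like cells expressed several members at once. At 3000 UMIs per cell, 37.2% of these cells in set 1 and 38.3% in set 2 held UMIs of exactly 4 of the 6 members, and 0% and 0.435% held none. Endothelial-like cells mostly held 2 members (45.7% and 33.3% of cells) or 3 members (45.7% and 56.1%). Most epithelial cells held none at this depth, 67.7% and 73.4% of basal-like and 89.3% and 93.7% of luminal-like cells.

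The next question was how the members divided between the basal and luminal layers of the epithelium. In set 1, Igfbp2, Igfbp3, Igfbp4 and Igfbp5 were at least 2-fold higher in basal-like than in luminal-like cells, 4 of 6 members beside 12.4% of all genes. In set 2 all 6 members were, beside 25.6% of all genes. No member was 2-fold lower in either set, beside 28.7% and 23.7% of all genes. Log2 ratios were 4.09 (3.74 to 4.45) and 4.11 (3.82 to 4.39) for Igfbp2 in sets 1 and 2, and 3.52 (3.27 to 3.78) and 3.31 (2.94 to 3.65) for Igfbp3. For Igfbp3 in set 2, 2 of 216 basal-like cells held 53 of the 74 UMIs, so the size of that ratio rested largely on them. Igfbp5 stood at 51.5 CPM (48.3 to 55.0) in basal-like and 6.64 CPM (6.14 to 7.16) in luminal-like cells of set 1, a log2 ratio of 2.96 (2.81 to 3.1). The ratio in set 2 was 1.22 (0.53 to 1.85). Igfbp4 gave 3.76 (3.30 to 4.23) and 1.24 (0.39 to 1.97), the latter on 15 basal-like UMIs. Igfbp7 was higher in basal-like cells by 0.82 (0.74 to 0.89) in set 1 and 2.15 (1.92 to 2.37) in set 2, with close basal-like levels and a luminal-like level in set 2 that was lower. Igfbp6 did not differ beyond counting error in set 1, at 0.086 (-0.85 to 0.92). In set 2 it gave 1.66 (0.70 to 2.48) on 12 basal-like UMIs, and with a stricter margin between the classes the ratio was -0.24 (-2.52 to 1.32).

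RNA released from other cells can give stray UMIs, so the epithelial levels are set beside stromal and endothelial markers. In basal-like cells of set 1, the level as a percentage of the fibroblast-like level was 9.37% for Igfbp2, 3.39% for Igfbp3, 1.51% for Igfbp5, 1.46% for Igfbp7 and 0.819% for Igfbp4, but 0.0632% for Igfbp6. Of the 6 fibroblast markers, Dcn stood at 32.6% and the median over the 6 was 0.0530%, the lowest being 0.0144%. The 6 endothelial markers reached at most 0.164% of their endothelial-like level. Igfbp6 was thus the member with a basal-like percentage near the median of the fibroblast markers, and the other five stood above it. In luminal-like cells of set 1, Igfbp6 stood at 0.0595% and Igfbp4 at 0.0605%, below the lowest fibroblast marker at 0.0943%. Igfbp5 stood at 0.194%, Igfbp3 at 0.295%, Igfbp2 at 0.55% and Igfbp7 at 0.828%, beside a marker median of 0.1165% and Dcn at 1.38%. In luminal-like cells of set 2, Igfbp4 at 0.133% and Igfbp6 at 0.136% lay near the marker median of 0.138%. The part of stray RNA in the basal-like and luminal-like levels was not tested.

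EGFP marks cells in which Cre recombined the reporter, and basal-like and luminal-like cells were therefore compared by EGFP level. The question was whether members differed between cells with 20 or more EGFP UMIs per 10000 and cells with none. The comparison could be made in set 1, with 258 against 773 basal-like and 450 against 1481 luminal-like cells. Set 2 held only 16 basal-like and 22 luminal-like cells without EGFP. ARQ was 7.78 times higher in the EGFP-high basal-like and 24.4 times higher in the EGFP-high luminal-like cells.

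In basal-like cells of set 1, Igfbp3, Igfbp4 and Igfbp5 were at least 2-fold lower in the EGFP-high cells, 3 of 5 members with 20 or more UMIs, beside 5.45% of all genes. No member was 2-fold higher, beside 3.16% of all genes. Igfbp3 went from 28.6 CPM (25.2 to 32.3) to 3.70 CPM (2.07 to 6.10), a log2 ratio of -2.95 (-3.81 to -2.20). Igfbp5 went from 62.5 CPM (57.4 to 67.9) to 16.8 CPM (13 to 21.3), at -1.90 (-2.28 to -1.53). Igfbp4 went from 9.12 to 1.97 CPM, at -2.21 (-3.47 to -1.16) on 8 UMIs in the EGFP-high cells. At 3000 UMIs per cell, the share of cells with a UMI went from 11.7% (9.54 to 14.2) without EGFP to 3.53% (1.63 to 6.59) with it for Igfbp5. For Igfbp3 it went from 4.75% (3.35 to 6.51) to 1.57% (0.429 to 3.97), and 6 cells with 10 or more UMIs held 89 of the 254 Igfbp3 UMIs without EGFP. Cells with a trace of EGFP (above 0 to under 5) resembled those with none, with 27.8 CPM of Igfbp3 and 66.5 CPM of Igfbp5. Igfbp2 stood at 13.2 and 10.1 CPM, with an interval of the log2 ratio that spanned 0, -0.38 (-0.93 to 0.14). Igfbp6, with 3 and 4 UMIs, was too sparse to compare. With any EGFP UMI against none in place of 20 or more, 0 members were 2-fold lower.

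**Figure D3:**
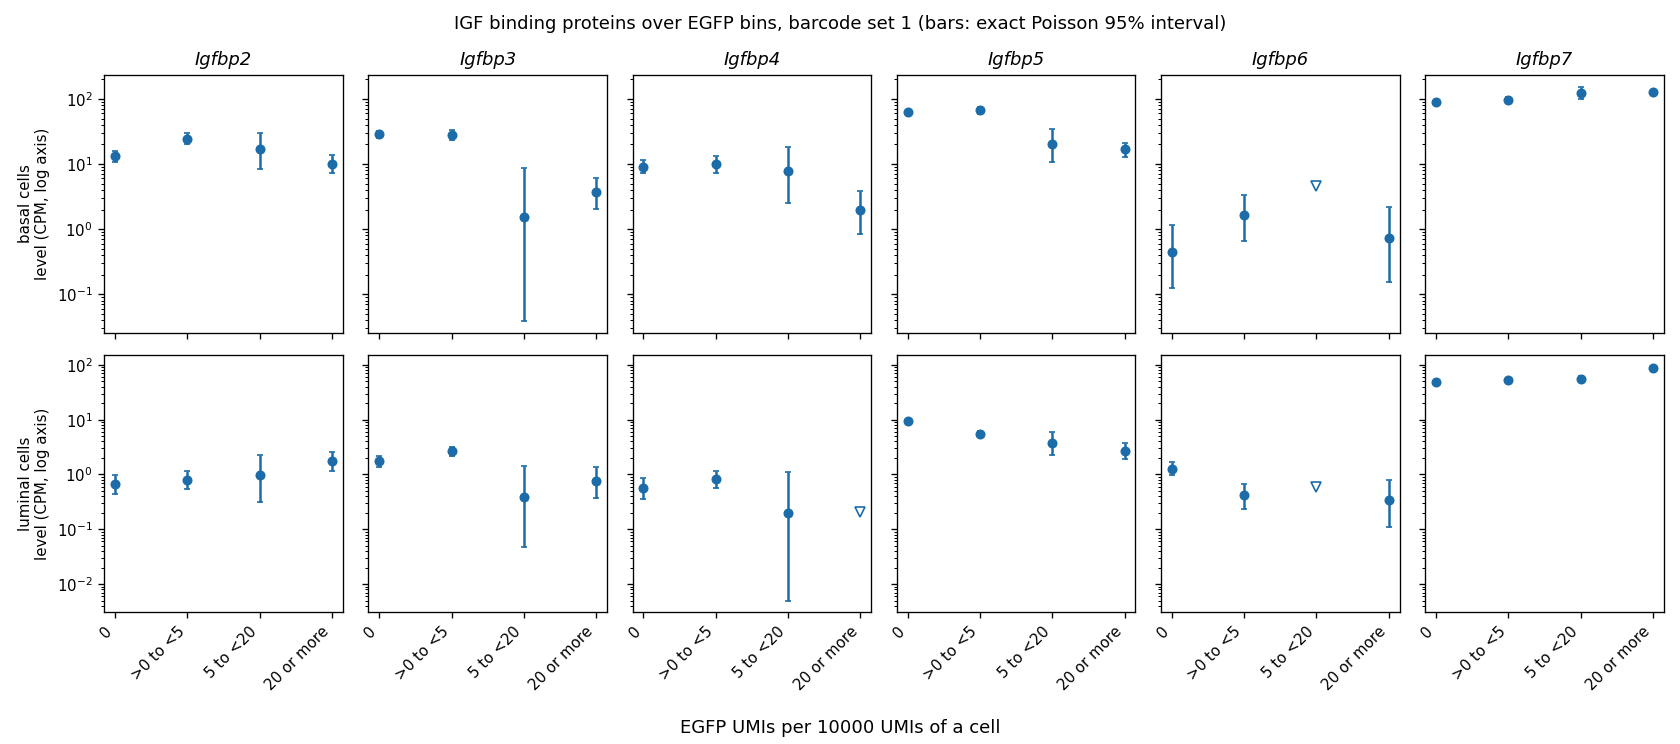
Level of each IGF binding protein (CPM, log axis) in basal-like (top) and luminal-like (bottom) cells of barcode set 1 over 4 bins of EGFP UMIs per 10000 UMIs of a cell; bars are exact Poisson 95% intervals and open triangles mark 0 UMIs, drawn at the level of 3 UMIs. In basal-like cells Igfbp3 and Igfbp5 are lower in the bin of 20 or more than in the bin without EGFP.

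In luminal-like cells of set 1, 4 of 6 members were at least 2-fold lower in the EGFP-high cells, beside 6.81% of all genes, and 1 was 2-fold higher, beside 5.97%. Igfbp5 went from 9.45 CPM (8.53 to 10.4) to 2.73 CPM (1.95 to 3.72), a log2 ratio of -1.79 (-2.30 to -1.32). Igfbp3 gave -1.22 (-2.29 to -0.30) and Igfbp6 -1.91 (-3.59 to -0.60). Igfbp4 had 0 UMIs in the EGFP-high cells against 23 in those without EGFP, at least 2.77-fold lower with the EGFP-high sum set to 3 UMIs. Igfbp2 was the member that was higher, from 0.666 to 1.77 CPM at 1.41 (0.58 to 2.25). All 5 of these stood below 10 CPM, and their largest sum in the EGFP-high cells was 40 UMIs. The levels of Igfbp5 and Igfbp6 without EGFP rested in part on few cells. Of the Igfbp5 UMIs without EGFP, 254 of 383 lay in 6 of 1481 cells, the highest with 103, and of the Igfbp6 UMIs 24 of 52 lay in 1 cell. The share of cells with an Igfbp5 UMI was 4.86% without EGFP and 5.56% in EGFP-high cells, and after thinning 1.30% (0.782 to 2.02) and 0.895% (0.244 to 2.28). For Igfbp6 the shares were 0.810% and 1.11%, so the share of cells with a UMI was not lower with EGFP for either gene before thinning, and the thinned intervals overlapped for Igfbp5. With classes taken from Leiden clusters, 0 members were 2-fold lower.

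Stromal markers moved with EGFP in part. In luminal-like cells of set 1, 6 of 6 fibroblast markers had UMIs in cells without EGFP and 4 of 6 in EGFP-high cells, where Col1a1 and Lum were at 0. Their summed level was 96.5 and 161 CPM, mostly Dcn, while Col1a1 stood at 1.90 CPM without EGFP. The 6 mural markers were all detected on both sides and summed to 24.0 CPM without EGFP and 7.44 CPM in EGFP-high cells. Of these, Rgs5 went from 14.2 to 1.09 CPM and Tagln from 5.72 to 1.16 CPM, and Notch3 from 2.71 to 4.50 CPM. In basal-like cells of set 1 the collagen genes Col1a1, Col1a2 and Col3a1 held 2, 5 and 3 UMIs without EGFP and none in EGFP-high cells, against 555 UMIs of Igfbp5 and 254 of Igfbp3 without EGFP. The summed fibroblast markers there, nearly all Dcn, stood at 2618 CPM without EGFP and 3286 CPM in EGFP-high cells, with 5 and 3 of 6 detected. The mural markers there summed to 21.2 and 19.7 CPM, a sum that hides opposite changes. Rgs5, a pericyte gene, went from 7.77 to 0.247 CPM and Tagln from 10.8 to 4.93 CPM, while Acta2 went from 2.03 to 14.1 CPM. The endothelial markers summed to 2.70 and 2.71 CPM. The part of stray fibroblast or mural RNA in the basal-like and luminal-like differences was not tested.

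Igfbp7 was higher in the EGFP-high cells of set 1 as a whole, and in luminal-like cells the ratio differed between the groups of a second score. The whole-class log2 ratio was 0.49 (0.33 to 0.65) in basal-like and 0.85 (0.75 to 0.95) in luminal-like cells. These levels rested in part on few cells with 10 or more UMIs. In basal-like cells 16 of 258 EGFP-high cells held 276 of 515 UMIs, and 10 of 773 without EGFP held 157 of 802. In luminal-like cells 44 of 450 held 1079 of 1312, and 48 of 1481 held 1136 of 2008. The share of basal-like cells with an Igfbp7 UMI was 38.4% without EGFP and 38.8% in EGFP-high cells. In luminal-like cells it was 22.8% and 27.1%. The score is the mean over Krt4, Krt7, Ppp1r1b, Aqp3 and Wfdc2, genes known from epithelium of the proximal ducts near the urethra, and its limit of 1 was chosen after the data were seen. Among luminal-like cells with a score of 1 or more, Igfbp7 went from 146 CPM without EGFP to 345 CPM in EGFP-high cells, a log2 ratio of 1.23 (1.12 to 1.35). Among those with a score under 1 it went from 20.4 to 14.7 CPM, at -0.48 (-0.73 to -0.23) over 344 EGFP-high and 1136 EGFP-zero cells. The latter difference was under 2-fold and rested in part on 1 EGFP-zero cell, which held 178 of the 636 UMIs on that side. It therefore does not show a lower level over these cells in general. The share of luminal-like cells at 1 or more was close on both sides, 23.3% without EGFP and 23.6% in EGFP-high cells. Basal-like cells did not divide this way. With a score under 1, Igfbp7 was higher in EGFP-high basal-like cells, at 0.64 (0.42 to 0.87), and with a score of 1 or more the levels were 166 CPM without EGFP and 283 CPM over 41 EGFP-high cells, fewer than the 50 set for a ratio. Igfbp5 and Igfbp3 in basal-like cells with a score under 1 were lower with EGFP, at -2.27 (-2.71 to -1.86) and -2.95 (-3.88 to -2.14). In luminal-like cells Igfbp5 was lower with EGFP under 1, at -3.35 (-4.31 to -2.52), and not at 1 or more, where the ratio was 0.75 (0.017 to 1.45) on 28 and 47 UMIs. The level without EGFP under 1 rested largely on few cells, and the highest cell held 103 of the 336 UMIs. Over both score groups, 6 of 1481 cells without EGFP held 254 of 383 Igfbp5 UMIs. No luminal-like cell of set 1 at 1 or more held over 11 Igfbp5 UMIs. The differences between the score groups were not tested.

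**Figure D4:**
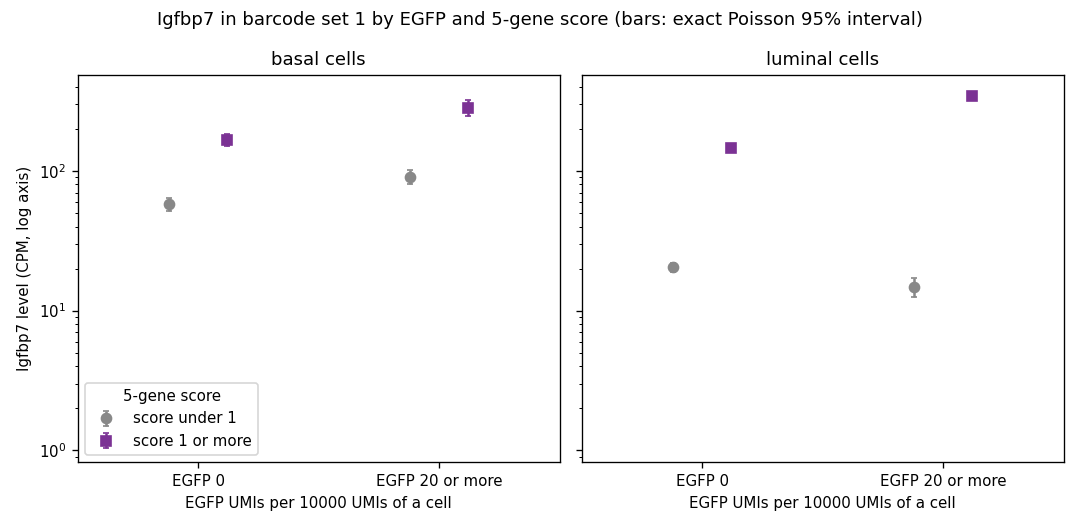
Igfbp7 level (CPM, log axis) in basal-like (left) and luminal-like (right) cells of barcode set 1 without EGFP and with 20 or more EGFP UMIs per 10000, split by the 5-gene score (circles under 1, squares 1 or more); bars are exact Poisson 95% intervals. Levels are higher with EGFP in both basal-like groups and in luminal-like cells with a score of 1 or more. They are lower in luminal-like cells with a score under 1, where 1 cell held 178 of the 636 UMIs without EGFP.

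The score itself went with Igfbp7. Luminal-like cells at 1 or more held 177 CPM (172 to 183) in set 1 and 578 CPM (543 to 614) in set 2, against 17.7 CPM (16.7 to 18.6) and 17.8 CPM (17.2 to 18.4) under 1. The log2 ratios were 3.33 (3.24 to 3.42) and 5.02 (4.92 to 5.12). Counts of members at least 2-fold higher were 2 of 6 in set 1, beside 6.05% of all genes, and 4 of 6 in set 2, beside 23.2%. Members 2-fold lower numbered 1, Igfbp6, in set 1 and 0 in set 2, beside 7.83% and 13.4%. Of luminal-like cells, 24.3% in set 1 and 1.12% in set 2 reached 1. Under 1, where most luminal-like cells of set 2 lie, the Igfbp7 levels of the sets were 17.7 and 17.8 CPM, close together beside the whole-class levels of 57.4 and 23.6 CPM.

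For set 2, cells with EGFP under 5 stood in for those without, a choice made after the data were seen. In this set fibroblast-like cells had a median of 3.04 and immune-like cells of 3.06 EGFP UMIs per 10000, so EGFP below 5 was at the level found in other classes. In basal-like cells (88 against 88) 1 of 4 members was 2-fold lower, beside 2.43% of all genes, and 1 was 2-fold higher, beside 3.55%. Igfbp3 was the one that was lower, at -2.03 (-2.93 to -1.21), but in set 2 it rested on 2 cells that held 53 of the 57 UMIs on the low side. Its share of cells with a UMI there was 5.68% with EGFP under 5 and 7.95% with 20 or more, and after thinning 4.76% (1.31 to 11.7) and 4.6% (1.27 to 11.4), which do not separate the groups. The same split in set 1 gave a ratio of -2.94 (-3.79 to -2.20) and thinned shares of 5.09% (3.85 to 6.60) and 1.57% (0.429 to 3.97). Igfbp5 gave -0.79 (-2.28 to 0.63) on 8 and 12 UMIs, which does not separate the groups. In luminal-like cells of set 2, 2 of 6 members were 2-fold lower, beside 19.9% of all genes, and 1 was higher, beside 13.9%. Igfbp5 went from 17.0 to 4.98 CPM, at -1.77 (-2.10 to -1.43), and its thinned share of cells from 4.89% (2.47 to 8.58) to 0.935% (0.731 to 1.18). The same split in set 1 gave -1.47 (-1.97 to -1.0) for Igfbp5, but 7 of 2555 cells with EGFP under 5 held 337 of 597 UMIs. Before thinning, the share of cells with an Igfbp5 UMI in set 1 was 5.71% with EGFP under 5 and 5.56% with 20 or more. In set 2 it was 13.7% and 3.42%, so the lower share was not repeated in set 1. Igfbp7 was lower in set 2, at -1.28 (-1.46 to -1.09), and among cells with a score under 1 the ratio was -0.18 (-0.49 to 0.14). Endothelial markers in basal-like cells of set 2 summed to 51.5 CPM with EGFP under 5 and 7.67 CPM with 20 or more, on 35 and 6 UMIs. In luminal-like cells of set 2 the sums were 25.2 and 13.2 CPM. Emcn there went from 20.2 to 1.13 CPM, while Egfl7 went from 1.26 to 6.88 CPM. The part of stray endothelial RNA in the set 2 differences by EGFP was not tested.

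Between the barcode sets, fibroblast-like cells differed in Igfbp5 and Igfbp4, in opposite directions. In fibroblast-like cells Igfbp5 stood at 3414 CPM in set 1 and 763 CPM in set 2, a log2 ratio of set 2 over set 1 of -2.16 (-2.26 to -2.07). Igfbp4 differed the other way, with 936 and 2841 CPM, at 1.60 (1.51 to 1.69). These were 1 member 2-fold lower and 1 higher, beside 5.50% and 6.77% of all genes. The other four stayed within 2-fold, Igfbp7 at -0.083 (-0.12 to -0.041). Thinned shares moved in the same directions, from 71.7% (63.7 to 78.9) to 41.3% (34.9 to 48.0) of cells for Igfbp5 and from 55.9% (47.4 to 64.1) to 73.5% (67.3 to 79.1) for Igfbp4. The set, the library and the tissue cannot be told apart. By Leiden clustering, fibroblast cluster 13 held 212 and 340 cells of sets 1 and 2, and cluster 14 held 0 and 55. Of the fibroblast-like cells, 20 of 157 and 58 of 279 lay within 0.3 of the class margin. Over the alternatives the ratios ranged from -2.39 to -2.15 for Igfbp5 and from 1.35 to 1.82 for Igfbp4. The part of cell makeup in these differences was not tested.

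**Figure D5:**
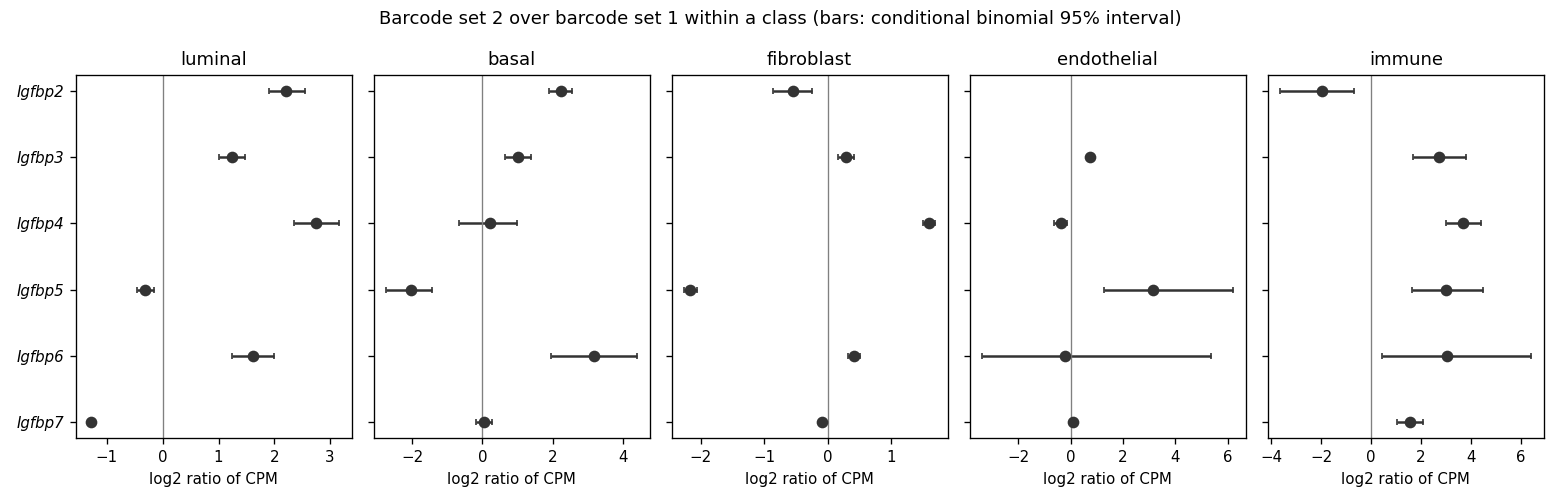
Log2 ratio of the CPM of each IGF binding protein in barcode set 2 over barcode set 1 within 5 cell classes; points are ratios, bars are conditional binomial 95% intervals, and the vertical line marks no difference. Each panel has its own horizontal axis. In fibroblast-like cells Igfbp4 lies to the right and Igfbp5 to the left of 0, and Igfbp7 lies near 0 in fibroblast-like, endothelial-like and basal-like cells.

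In basal-like cells Igfbp5 was again lower in set 2, at -2.04 (-2.74 to -1.42), while Igfbp3 was higher at 1.02 (0.64 to 1.38). The Igfbp3 level of set 2 rested on the same 2 cells, which held 53 of 74 UMIs, and the share of basal-like cells with an Igfbp3 UMI was 8.50% in set 1 and 6.02% in set 2, or 4.27% (3.26 to 5.49) and 4.35% (2.01 to 8.09) after thinning. Counts of members 2-fold higher and lower were 3 and 1 of 6, beside 8.35% and 8.30% of all genes. The number higher was 1 with a stricter margin between the classes and 0 with Leiden clusters. The higher Igfbp2 level in set 2 rested on the single cell with 90 UMIs. In luminal-like cells 4 members were 2-fold higher and 1 lower, beside 15.2% and 23.5%, but the clusters that held most luminal-like cells differed between the sets. By Leiden clustering, clusters 1, 2, 3 and 4 held mostly set 1 cells and clusters 7, 15, 16, 24 and 25 set 2 cells alone. Igfbp3 in luminal-like cells gave 1.24 (1.0 to 1.47) for set 2 over set 1, but -0.48 (-0.74 to -0.23) with classes taken from those clusters, and with doublets kept 0 members were 2-fold lower. In endothelial-like cells Igfbp3 was higher in set 2 at 0.75 (0.63 to 0.87) and Igfbp7 differed by 0.089 (0.036 to 0.14). There 1 of 4 members was 2-fold higher, beside 16.1% of all genes. That member was Igfbp5, on 2 UMIs in set 1. In immune-like cells 4 of 5 members were 2-fold higher in set 2 and 1 lower, beside 11.8% and 35.7% of all genes, with T lymphocyte-like cells the larger class in set 1 (787 cells) and myeloid-like cells in set 2 (190 cells).

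Other genes of the IGF system place the binding proteins beside their ligand, receptors and proteases. Of a list of 16 such genes 15 were in the table. The list included Igfbp1, which was at least 2-fold higher in luminal-like cells of set 2 than of set 1. In that comparison 4 of 14 listed genes were higher and 2 lower, beside 15.2% and 23.5% of all genes. The ligand Igf1 stood at 624 CPM (582 to 668) and 342 CPM (312 to 374) in fibroblast-like cells of sets 1 and 2 and at 0.567 and 0.520 CPM in luminal-like cells. Immune-like cells of set 2 held 149 CPM of Igf1, against 0.710 CPM in set 1. The receptor gene Igf1r was found in every class, at 87.5 and 79.3 CPM in basal-like and 65.9 and 89.7 CPM in luminal-like cells, and the insulin receptor gene Insr was highest in endothelial-like cells at 131 and 81.6 CPM. Stc1, an inhibitor of PAPP-A, was likewise highest there, at 665 and 409 CPM. Pappa itself had at most 6.04 CPM in fibroblast-like cells. Htra1, a protease that cuts binding proteins, stood at 304 and 267 CPM in fibroblast-like and 186 and 69.1 CPM in basal-like cells. Against epithelial cells, 6 of 12 listed genes with enough UMIs were 2-fold higher in fibroblast-like cells in set 1 and 7 of 12 in set 2, beside 25.8% and 29.4% of all genes.

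In EGFP-high cells Htra1 went the opposite way from Igfbp3, Igfbp4 and Igfbp5. It stood at 134 CPM in basal-like cells of set 1 without EGFP and 324 CPM in EGFP-high ones, a log2 ratio of 1.27 (1.16 to 1.39), and at 2.25 (2.04 to 2.45) in luminal-like cells. Igf1r gave 0.59 (0.42 to 0.77) and 0.14 (0.035 to 0.25). Of the listed genes, 1 of 7 was 2-fold higher and 1 lower in EGFP-high basal-like cells, beside 3.16% and 5.45% of all genes. The lower one was Igf1 with 0 UMIs. In luminal-like cells 2 of 10 were higher, Stc2 and Htra1, and 2 lower, Igf1 and Igfals, beside 5.97% and 6.81% of all genes. With so few genes tested, these counts say little about the list.

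Genes with the most similar pattern were sought over 14 profiles, 7 classes in each set, as Pearson r of log2(CPM + 10) among 6365 genes. These r values describe profiles that share libraries. Igfbp7 was closest to Sparc (0.989), a matrix protein of stroma and vessels, then Serpinh1 and Lix1l. Igfbp3 was closest to Cd34 (0.960), a surface protein of vessel lining, then Fbln5 and Ramp2. Igfbp6 was closest to 1500015O10Rik (0.995), then the secreted Wnt inhibitor Sfrp1 and Loxl1. Igfbp5 was closest to Ak1 (0.977), then Pcolce and Serping1, and Igfbp4 to Fam198b (0.940), then Tspan4 and Fbln2. Igfbp2 had the lowest leading value, 0.889 with Nrg2, and next to it Fmod and Gsk3a. Its profile rests in part on 11 mural-like cells, where 1 cell held all 37 UMIs. Among the members, Igfbp5 and Igfbp6 had the highest r, 0.871, and the neighbouring genes Igfbp2 and Igfbp5 had 0.593.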

How the data were processed

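According to the study's methods, UMIs were counted with Cell Ranger 3.1.0 on mm10 with the hARtg and mGFP sequences added. Droplets without a cell, multiplets and cells with much mitochondrial RNA had been filtered out by the authors. The table they deposited holds natural log values: a cell's UMIs of each gene were divided by all its UMIs, multiplied by 10000 and increased by 1 before the ln. Whole UMIs were recovered for 100% of values within 0.001. Scores were mean ln values over marker lists. A class needed a leading score of 0.5 and a margin of 0.3. Basal minus luminal scores of -0.5 or more and -1.5 or less set the epithelial classes. Doublets were cells with Scrublet scores of 0.25 or more (scanpy 1.11.5), 150 and 183 in sets 1 and 2. UMIs were summed per class and set. Intervals were exact Poisson, Clopper-Pearson and conditional binomial, at 95%, a sum of 0 was set to 3 UMIs in ratios, and no ratio was formed where both sums were at or under 3 or where that floor lay above the other side. A gene was called at 2-fold with 20 or more UMIs. The code was tested on simulated data. Named genes were the 6 members, the IGF list, the 3 most alike genes for each member and checks of labels. The members and lists were chosen with earlier results of these data known, and gate limits, the EGFP split at under 5 and the limit of the 5-gene score were set after the data were seen. The 5-gene score left out 1 listed gene that is not reported here. Promoters came from RefSeq on GRCm38.p6, where all 6 members matched. Alternatives covered gates, clusters, doublets, weights, scaling, thinning and the reporter split.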

Additional observations from a re-analysis of the deposited data

Results flagged for a closer look

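Each of 2 members gave log2 ratios of opposite sign in the 2 barcode sets under the same contrast, and the difference between the sets was not tested. For Igfbp2 in basal-like cells, EGFP of 20 or more against under 5 gave -0.74 in set 1 and 1.71 in set 2, where 1 cell held 90 of 121 UMIs. For Igfbp7 in luminal-like cells the same contrast gave 0.80 in set 1 and -1.28 in set 2. Cells with a 5-gene score of 1 or more made up 5.58% of the low and 0.939% of the high side in set 2, and the part of that difference was not tested.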

How the results depend on the processing

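No paired analysis was possible because each tissue was 1 library and no comparison came from a test over samples. Of 439 recomputed log2 ratios, 19 changed sign, 7 of them where the reported interval excluded 0, and 123 left the counting interval of the reported value without such a sign change. The EGFP split at under 5 and the restriction to a 5-gene score under 1 were chosen after seeing the data. The cause of the changes was not tested. With a stricter gate, the Igfbp6 ratio of basal-like over luminal-like cells in set 2 was -0.24, 1 member was lower in endothelial-like than epithelial cells of set 2, and 1 was higher in set 2 in basal-like and 1 in immune-like cells. With Leiden clusters, the Igfbp6 ratio by EGFP in luminal-like cells was 0.84, and ratios of set 2 over set 1 were -0.48 for Igfbp3 and 0.29 for Igfbp5 in luminal-like and -0.093 for Igfbp7 in endothelial-like cells. Under these clusters 0 members were lower by EGFP in luminal-like cells, 0 were higher in set 2 in basal-like and 2 lower in fibroblast-like cells. With doublets kept, 0 members were lower in set 2 in luminal-like cells. With equal weight for every cell, 1 member was lower in endothelial-like than epithelial cells of set 1 and 0 were lower in set 2 in immune-like cells. With any EGFP UMI against none, 0 members were lower in basal-like and 2 in luminal-like cells, 0 were higher in luminal-like cells, and the luminal-like Igfbp3 ratio was 0.18. With a minimum of 50 UMIs, which tests fewer genes, the genes past 2-fold numbered 500 by EGFP in basal-like cells (reported 889), and between the sets 1196 in basal-like (1842), 485 in fibroblast-like (1051) and 841 in endothelial-like cells (1577), and 2 members were higher in set 2 in immune-like cells. Among cells with a 5-gene score under 1, the Igfbp7 ratio by EGFP in luminal-like cells was -0.48, and 2 members were lower there. For Igfbp7, 1 cell held 178 of the 636 UMIs without EGFP in that group. Over the alternatives, the Igfbp7 ratio of set 2 over set 1 ranged from -0.84 to 0.14 in basal-like cells. In fibroblast-like cells it ranged from -0.72 to -0.064. Basal-like cells of set 2 and sums under 20 UMIs limit what depth can show.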

Other observations

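Igfbp2 in the cells between basal and luminal of set 2 had 325 UMIs in its highest cell. In luminal-like cells of set 2, 18 of 7976 cells held 570 of its 724 UMIs. Dcn, a proteoglycan gene known from fibroblasts, stood at 2771 CPM in the basal-like class of set 1 against 1206 CPM in set 2, while Col1a1 stood at 0.112 and 0 CPM.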
